A study of Caenorhabditis elegans with 4 samples.

Results

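The 2 arms of Caenorhabditis elegans chromosome V held 667 of the 9165 PHA-4 binding peaks called in late embryos. An arm peak was any peak of the deposited list on V whose midpoint lay below 7 Mb (left arm, 379 peaks) or at or above 14 Mb (right arm, 288 peaks) in genome build WS180. These positions, and no measured value, chose the members. The 568 peaks between the boundaries form the centre of V, and "rest of the series" below means that centre together with all peaks on I, II, III, IV and X (8498 peaks).

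PHA-4 is the FoxA transcription factor of the worm. It is required for cells to become pharynx, the muscular feeding organ at the front of the gut, and FoxA proteins in general bind regulatory DNA of foregut and gut genes early in development. Worm chromosomes have a single gene-dense central region that recombines little, flanked by arms that recombine more, carry more repeats and bear more heterochromatin marks. On V the arms are known for large families of chemoreceptor genes, which act mostly in sensory neurons.

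Chromatin immunoprecipitation followed by sequencing (ChIP-seq) was made on hermaphrodite late embryos of strain OP37, grown at 20 °C, with an antibody against green fluorescent protein (GFP). The strain carries the integrated transgene wgIs37, made by bombardment, in which pha-4 is joined to TY1, EGFP and 3xFLAG beside a rescuing unc-119(+), in an unc-119(ed3) III background. All 4 libraries share this genotype and stage: 2 ChIP libraries and 2 libraries of input DNA. The labels report that the tagged protein follows the pattern of pha-4, and they give neither the place of the integrated transgene in the genome nor a library from a strain without it. The gene pha-4 itself is on chromosome V in the RefSeq gene table of build WBcel235. Which WS180 peak lies nearest to it was not analysed here, and reads of transgene copies and of the native gene cannot be told apart in a peak list.

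Only 1 peak list, named as combined over the replicates, was analysed. It gives each peak's position and the q-value of the authors' caller, and no tag counts, so the depth behind a peak is unknown and no value carries a replicate error. Differences below are therefore descriptions of 1 list with no test, and the spread between windows of 1 Mb along an arm is given as the scale against which they can be read. Windows of one chromosome are not replicates.

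Both arms were sparse in PHA-4 peaks, and the right arm more so. The left arm held 54.1 peaks per Mb over 7 Mb. The right arm held 41.7 peaks per Mb over 6.90 Mb, measured from 14 Mb to the end of the last peak. The right arm thus had 0.771 times the density of the left. The centre of V held 81.1 peaks per Mb and the rest of the series 98.7. Against the centre of V, the left arm stood at 0.667 times and the right arm at 0.514 times. Against the rest of the series the ratios were 0.549 and 0.423. Together the arms made up 13.9% of the span of all chromosomes and 7.28% of the peaks. The share of DNA under a peak was 2.14% on the left arm, 1.58% on the right, 3.56% in the centre and 3.66% in the rest of the series. Gene content and mappability along the arms were not measured here.

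Arms of the other autosomes were denser. When I, II, III and IV were each divided into 3 equal spans, the 8 outer spans held from 70.7 peaks per Mb (left end of II) to 111 per Mb (right end of III), with a median of 91.7. Of these 8, 0 were as sparse as either arm of V. The nearest were the left end of II and the right end of IV, at 70.7 and 70.9 peaks per Mb.

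Density followed the same course on each arm. It was highest next to the centre, lowest about midway along the arm, and higher again towards the tip. Leftwards from the centre, the window from 6 to 7 Mb held 88 peaks and the one from 5 to 6 Mb held 72. The counts were then 43 from 4 to 5 Mb, 28 from 3 to 4 Mb, 42 from 2 to 3 Mb, 52 from 1 to 2 Mb and 54 in the terminal Mb. Rightwards the count was 76 from 14 to 15 Mb, 43 from 15 to 16 Mb, 31 from 16 to 17 Mb and 16 from 17 to 18 Mb. It was 37 from 18 to 19 Mb and 35 from 19 to 20 Mb, and the last 50 peaks, beyond 20 Mb, came to 55.6 per Mb. The sparsest window thus lay between 3 and 4 Mb from the inner boundary on each side.

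The ranges of the arms overlapped. The 7 full windows of the left arm held 28 to 88 peaks (54.1 ± 20.1, SD) and the 6 full windows of the right arm 16 to 76 (39.7 ± 20.0). The difference between arms was smaller than the spread between windows within either. Set side by side at equal distance from the inner boundary, the right arm was the sparser in each of the 6 full windows but not at the tip, with 55.6 against 54 peaks per Mb.

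**Figure D1:**
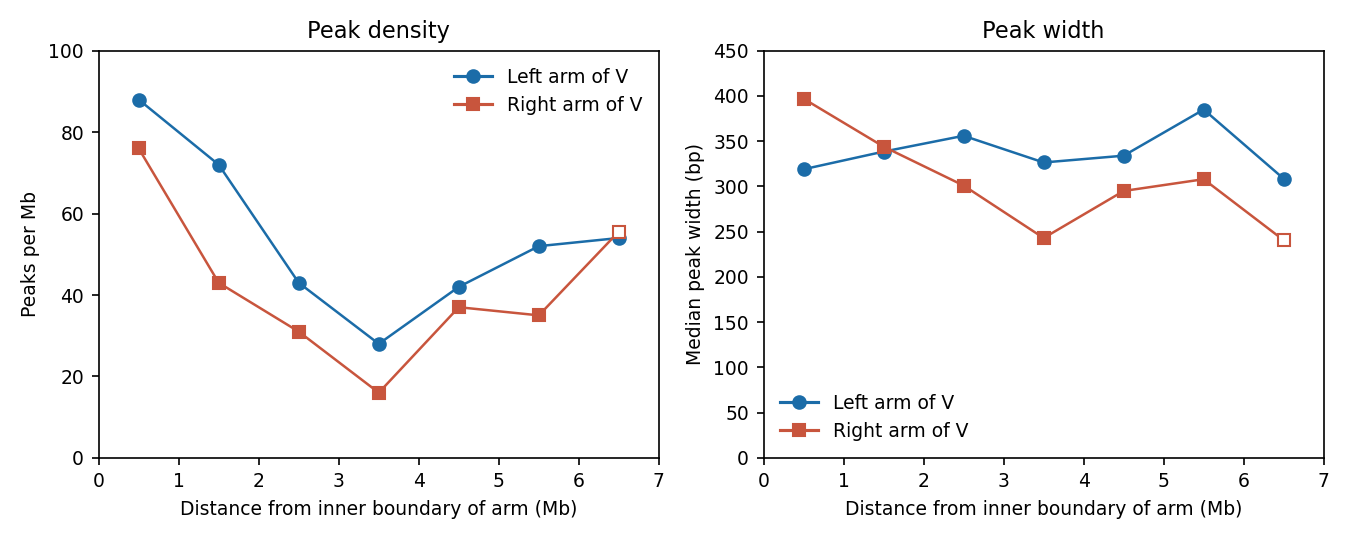
Peaks per Mb (left panel) and median peak width in bp (right panel) in windows of 1 Mb, plotted by distance from the inner boundary of each arm (7 Mb on the left arm, 14 Mb on the right). The open square is the incomplete last window of the right arm. Density is 88 and 76 next to the centre, 28 and 16 in the window 3 to 4 Mb away, and higher again at the tips. Median width on the right arm is 397 bp in the first window and 243 bp in the fourth.

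The boundary at 7 Mb did not coincide with a step to higher density. The first window of the centre, from 7 to 8 Mb, held 45 peaks, fewer than the 88 just outside it on the arm, and the centre as a whole ranged from 45 to 109 peaks per window. At 14 Mb the counts on either side were equal, with 76 peaks from 13 to 14 Mb and 76 from 14 to 15 Mb. The last peak of the left arm, at chrV:6998301-6998818 (518 bp, q = 3.58e-05), was followed by a first centre peak at chrV:7011563-7012124 (562 bp, q = 0.00268). The last centre peak, at chrV:13962035-13962375 (341 bp, q = 7.12e-14), was 40.5 kb from the first of the right arm, at chrV:14002399-14002947 (549 bp, q = 8.36e-10).

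Long peak-poor stretches were more frequent on the right arm. A peak-poor stretch is here a run of at least 100 kb between the end of one peak and the start of the next. The right arm had 15 of them, which summed to 2129 kb or 30.9% of the arm. The left arm had 7, with 1155 kb or 16.5%, and the centre 4, with 489 kb or 6.98%. Counted down to 50 kb, the right arm had 43 such stretches with 58.4% of its length, the left arm 36 with 45.2% and the centre 17 with 19.9%. Among the better-scoring 0.5 of the list the numbers were closer, at 18 on the left arm and 21 on the right. The longest stretches were of similar length on both arms.

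The longest stretch of the left arm ran over chrV:2298924-2565439 (267 kb), followed by chrV:3803678-4029639 (226 kb) and chrV:2877714-3094423 (217 kb). The longest of the right arm ran over chrV:16966000-17258253 (292 kb), then chrV:17315340-17538290 (223 kb) and chrV:15191294-15389078 (198 kb). The longest stretch in the centre, chrV:7237529-7391965, was 154 kb, shorter than the top 3 of either arm. A strong peak is used below for a q-value under 1e-10, which 32.2% of all peaks of the list reached. Of the bordering peaks, 3 of 14 were strong on the left arm (21.4%) and 6 of 29 on the right (20.7%), beside 24.0% and 29.2% of all peaks of these arms.

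**Figure D2:**
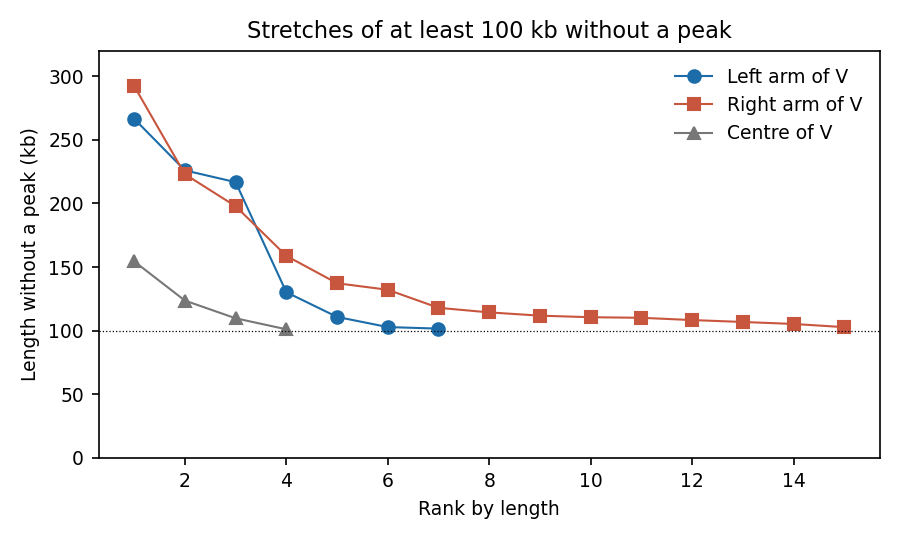
Length in kb of every stretch of at least 100 kb without a peak (dotted line, the minimum), ordered by length within the left arm, the right arm and the centre of V. The top 3 are of similar length on both arms, at 217 to 267 kb on the left and 198 to 292 kb on the right, while the right arm goes on to 15 stretches and the left arm ends at 7.

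The shortest span with 5 neighbouring stretches was located on each arm. Of the 7 on the left arm, 5 fell within chrV:2298924-4325369, a zone of 2.03 Mb of which 46.9% was free of peaks in these 5 stretches. It held 54 peaks, or 26.6 per Mb, with a median width of 331 bp. Of these 54, 12 were strong, and the best had q = 1.88e-24. The other 10 of the 15 on the right arm were spread over the rest of that arm, and 5 fell within chrV:16592478-17857802, a zone of 1.27 Mb of which 68.2% was free of peaks. It held 16 peaks, or 12.6 per Mb, with a median width of 239 bp. Only 2 of these 16 were strong, the better with q = 1.23e-21. Neither zone held an island as defined next. These zones were picked after their values were seen, as the shortest spans that contain 5 neighbouring stretches, so their closeness and low density are set by that choice and are a description.

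Peak islands were more frequent on the left arm, and the largest ones of the arms lay on the right. An island is a run of at least 5 peaks in which each midpoint is at most 5 kb from the next. The left arm had 12 islands, with 69 of its 379 peaks (18.2%), or 1.71 islands per Mb. The right arm had 6, with 38 of 288 peaks (13.2%), or 0.870 per Mb. The centre had 17, with 112 of 568 peaks (19.7%), or 2.43 per Mb. Island size reached 10 peaks in the centre, 9 on the right arm and 7 on the left. The mean distance between neighbouring midpoints was 18492 bp on the left arm and 24030 bp on the right, and the part of this difference in the island counts was not tested. Islands covered 1.79% of the left arm and 0.710% of the right. The order of the arms depended on the definition: with a link of 3 kb the left arm had 5 islands and the right 6, and islands of at least 8 peaks numbered 0 and 2.

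The largest island of the right arm, chrV:14495645-14506517, had 9 peaks in 10.9 kb. Their widths ran from 129 to 1286 bp, 2 were strong and the best had q = 1.62e-18. The next, chrV:14127781-14139773, had 8 peaks in 12.0 kb and contained the fifth-best peak of the arm, at chrV:14136077-14136801 (725 bp, q = 5.13e-50). Both lay in the first Mb beyond the centre. Next came chrV:18555193-18561305, with 6 peaks in 6.11 kb, among them a peak of 1127 bp, in the outer part of the arm.

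No island of the left arm had more than 7 peaks. The islands at chrV:974883-984002 (9.12 kb) and chrV:6473802-6489219 (15.4 kb) had 7 peaks each. The former held 2 strong peaks with a best q-value of 2.12e-20, and the latter held 0, with a best of 8.78e-08. Next by rank, chrV:6206593-6214194, had 6 peaks in 7.60 kb, again with 0 strong peaks. Within islands 30.4% of left-arm peaks and 23.7% of right-arm peaks were strong, against 22.6% and 30% of the peaks outside islands. The direction was opposite on the 2 arms, and with 21 and 9 strong peaks in islands it rests on few peaks.

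A few kb from chrV:6206593-6214194, the island at chrV:6220802-6234329 held 6 peaks in 13.5 kb with a median width of 1116 bp. It contained the best-scoring and the widest peak of the left arm. The densest 100 kb window of the left arm, chrV:6200001-6300000, included these neighbouring islands and had 19 peaks, 8 of them strong. On the right arm chrV:14100001-14200000 and chrV:18500001-18600000 tied as the densest such windows, with 13 peaks each. In the former, 2 were strong. The left-arm window and chrV:14100001-14200000 lay in the arm Mb next to the centre, and chrV:18500001-18600000 in the outer part of the arm.

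At the scale of 100 kb, peaks were concentrated in few windows. On the left arm 18 of 70 windows (25.7%) sufficed to hold 50% of the peaks, on the right arm 16 of 68 (23.5%), and in the centre 23 of 70 (32.9%). The left arm had 5 empty windows and the right arm 7, against 1 in the centre. Windows with at least 10 peaks numbered 8 on the left arm, 6 on the right and 24 in the centre. The variance of the counts was 2.88 times their mean on the left arm and 2.65 times on the right, above the 1.94 of the centre.

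Neighbouring peaks lay further apart on the right arm. From one midpoint to the next the median was 7358.5 bp on the left arm (quartiles 2355 and 21627 bp, 378 distances) and 9603 bp on the right (quartiles 2732.5 and 28699 bp, 287 distances). It was 5506.5 bp in the centre and 4515 bp in the rest of the series. Across the 8 outer spans of I to IV the median ranged from 3849 to 6539 bp, below both arms of V.

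The arms differed little in distances under 1 kb, and more from 2 to 5 kb and over 50 kb. Distances under 1 kb made up 5.82% on the left arm and 6.62% on the right, both below the 10.1% of the centre and the 11.1% of the rest. From 2 to 5 kb the left arm had 22.2% of its distances and the right 15.7%. Under 5 kb in all, the shares were 42.1% and 35.2%, against 52.4% in the rest of the series. Distances over 50 kb made up 9.52% on the left arm and 14.98% on the right, against 3.17% in the centre and 2.43% in the rest. In the outer spans of I to IV this share ran from 1.57% (right end of III) to 6.41% (left end of II). Relative to the mean, the spread of distances was similar. Their SD was 1.60 times the mean on the left arm and 1.53 times on the right, within the 1.15 to 1.83 of the outer spans of I to IV.

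**Figure D3:**
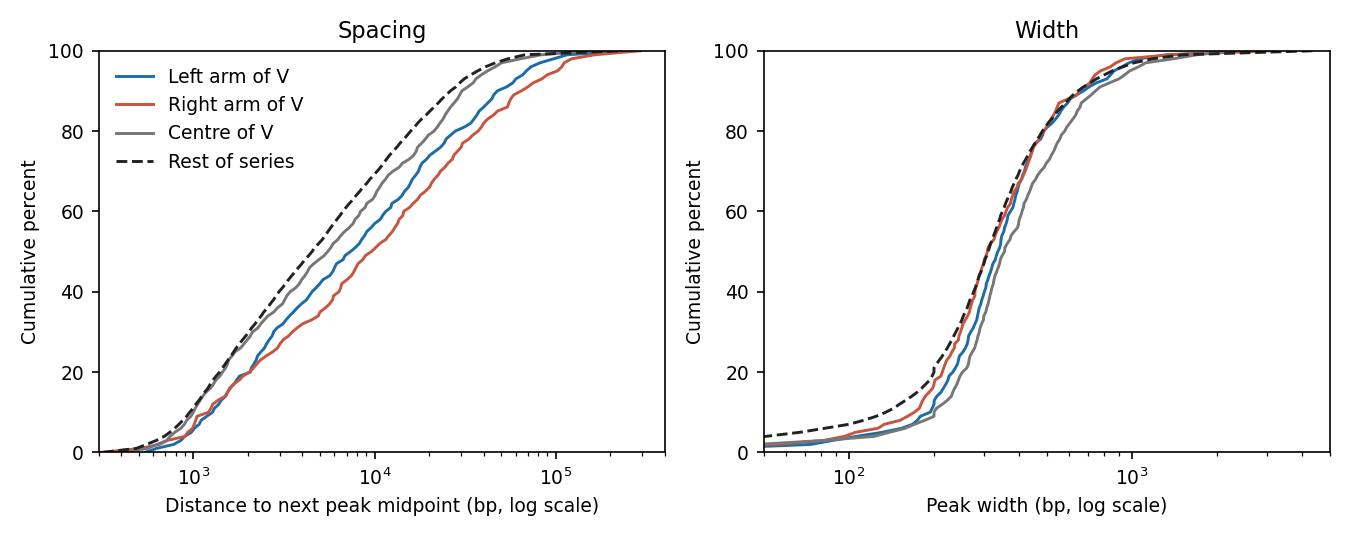
Cumulative percent of distances between neighbouring peak midpoints (left panel) and of peak widths (right panel), both in bp on a log scale, for the left arm, the right arm and the centre of V and for the rest of the series (dashed). Apart from the lowest 2% of distances, the curves of both arms lie below those of the centre and the rest at short distances too. The arms separate from each other from about 2 kb upwards, with medians of 7358.5 bp on the left arm and 9603 bp on the right. Width curves lie close together, with medians of 336 and 309 bp.

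Width differed less than spacing. The median peak was 336 bp wide on the left arm (quartiles 253 and 443 bp) and 309 bp on the right (quartiles 231 and 445 bp), a difference of 27 bp. The order turned among the better-scoring 0.5 of the list, with 415 bp on the left and 433 bp on the right. The medians were 355 bp in the centre of V and 310.0 bp in the rest of the series, and 283 to 338.5 bp in the outer spans of I to IV. Along the left arm the medians of the 1 Mb windows lay between 308.5 and 385 bp. On the right arm they lay between 243 and 397 bp among full windows, so the 27 bp between the arms were less than the spread along either. Without peaks under 200 bp the arms stood at 353 bp (left) and 348 bp (right).

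Peaks on the right arm were narrower away from the centre. Its side next to the centre (152 peaks over 3.45 Mb) had a median of 366 bp, and its outer side (136 peaks) one of 278.5 bp. On the left arm the inner and outer sides stood at 344 bp (218 peaks) and 328 bp (161 peaks). The median on the right arm was 397 bp from 14 to 15 Mb, 344 bp from 15 to 16 Mb, 301 bp from 16 to 17 Mb and 243 bp from 17 to 18 Mb. It was 295 and 308 bp in the next windows and 240.5 bp beyond 20 Mb.

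The share of very narrow calls was below that of the rest of the series on both arms. It was also lower in the centre of V, at the ends of X and at the right end of IV. Peaks under 200 bp made up 11.3% on the left arm (43 peaks) and 16.3% on the right (47 peaks), against 8.98% in the centre of V and 19.6% in the rest of the series. The outer spans of X, divided in the same way as I to IV, stood at 13.9% and 13.8%, and the right outer span of IV at 16.0%. On the right arm, peaks under 200 bp were most frequent beyond 20 Mb, where the median width was 240.5 bp. All 90 on the arms had weak q-values. The best was 1.23e-05 on the left arm and 5.84e-06 on the right, and 0 were strong. The narrowest left-arm call was 1 bp wide and the narrowest right-arm call 5 bp. At the other end, 11 left-arm peaks (2.90%) and 6 right-arm peaks (2.08%) were wider than 1000 bp, and 9 of the 11 and 6 of the 6 were strong. Wider peaks had better q-values, with Spearman's rho of width and −log10 q at 0.65 on the left arm (379 peaks) and 0.69 on the right (288 peaks). These are descriptions across peaks of one list, and the caller sums tags over a peak's whole width.

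Strong peaks made up a smaller share on the left arm. Of the left-arm peaks 91 (24.0%) had a q-value under 1e-10, and of the right-arm peaks 84 (29.2%), beside the 32.2% of the whole list and 32.7% in the centre of V. The outer spans of I to IV ran from 27.7% to 36.1%, a range that included the right arm but not the left. Among the best-scoring 10% of all peaks were 17 of the left arm (4.49%) and 22 of the right (7.64%). In that top class the right arm was therefore the denser, with a ratio of 1.31 to the left, where it was 0.771 over all peaks. Under 1e-50 were 5 peaks of the left arm (1.32%) and 4 of the right (1.39%), against 0.880% in the centre of V and 2.32% of the list. Along the left arm the strong share of a window ran from 17.9% to 32.6%, and along the full windows of the right arm from 19.4% to 41.9%, so the arms overlapped.

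The best peak of the arms was on the left, at chrV:6226913-6228821. It was 1909 bp wide with q = 1.32e-138 and ranked 17 in the whole list. The next of the left arm were chrV:6357915-6360274 (2360 bp, q = 3.18e-72), chrV:5049255-5050179 (925 bp, q = 1.40e-67), chrV:1151172-1152174 (1003 bp, q = 4.94e-61) and chrV:2218871-2219312 (442 bp, q = 5.19e-51). The widest, chrV:6222550-6225344, spanned 2795 bp (q = 1.36e-41) and was a direct neighbour of the best. All 5 best had another peak within 5 kb, at 1.71 to 4.18 kb between midpoints.

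On the right arm the best was chrV:15497606-15498157, only 552 bp wide with q = 2.79e-88 and rank 60. It was followed by chrV:20271919-20273905 (1987 bp, q = 2.42e-83), chrV:20771429-20774535 (3107 bp, q = 1.73e-71), chrV:18967502-18968018 (517 bp, q = 2.74e-62) and the peak in the island of 8 named above. The 3107 bp peak was also the widest of both arms and had its nearest neighbour 33.1 kb away. Whether it lies at pha-4, and could so hold reads of the transgene, was not tested. The second widest, chrV:14830470-14832640, spanned 2171 bp (q = 1.80e-26). The 5 best lay in 4 different windows of 1 Mb on each arm.

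Peaks that stood alone were seldom strong on the arms. In all, 34 left-arm peaks (8.97%) had no other midpoint within 20 kb, as had 38 on the right (13.2%), against 3.04% of the rest of the series. Of these lone peaks 3 of 34 on the left (8.82%) and 4 of 38 on the right (10.5%) were strong. Lone peaks in the centre of V were strong in 11 of 28 cases (39.3%), and those in the rest of the series in 85 of 258 (32.9%). Among arm peaks with a neighbour within 2 kb the strong share was 28.7% on the left (129 peaks) and 34.0% on the right (94 peaks), close to the 31.3% of the rest. The share on the left arm was also low between 10 and 20 kb, at 5 of 48 peaks (10.4%), while on the right it was 10 of 38 (26.3%).

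With a looser threshold the lone peaks stood closer to the others. At 1e-05, 18 of the 34 lone left-arm peaks passed (52.9%), as did 51.7% of all left-arm peaks. On the right arm 17 of 38 lone peaks passed (44.7%) beside 53.8% of all its peaks. The median q-value of the lone peaks was 1.33e-06 on the left arm, better than the 5.40e-06 of all left-arm peaks. On the right arm it was 5.15e-05, worse than the 4.20e-06 of all right-arm peaks. Lone peaks were narrower than those with a neighbour within 2 kb, with medians of 308 against 383 bp on the left and 279 against 346 bp on the right. The same order held in the centre of V (315.5 against 396 bp) and in the rest of the series (287 against 322 bp). Left-arm peaks between 10 and 20 kb from the nearest were narrower than the lone ones, at 283 bp. These classes were looked at after the data had been seen, and no test was made.

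The 7 strong lone peaks were 272 to 582 bp wide, with 1 exception. The median of all lone peaks was 308 bp on the left arm and 279 bp on the right. Those of the left arm were chrV:1003741-1004322 (582 bp, q = 1.04e-15), chrV:1743494-1743883 (390 bp, q = 5.07e-19) and chrV:4371518-4372008 (491 bp, q = 1.24e-11). On the right arm chrV:15610336-15610779 (444 bp, q = 1.32e-13) was followed by chrV:16965565-16965999 (435 bp, q = 3.52e-20), which bordered the longest stretch of the arm and stood 54.8 kb from its nearest neighbour. The exception was the peak of 3107 bp already described, whose position relative to pha-4 was not analysed. The last was the final peak of the chromosome, at chrV:20899190-20899461 (272 bp, q = 9.16e-11).

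**Figure D4:**
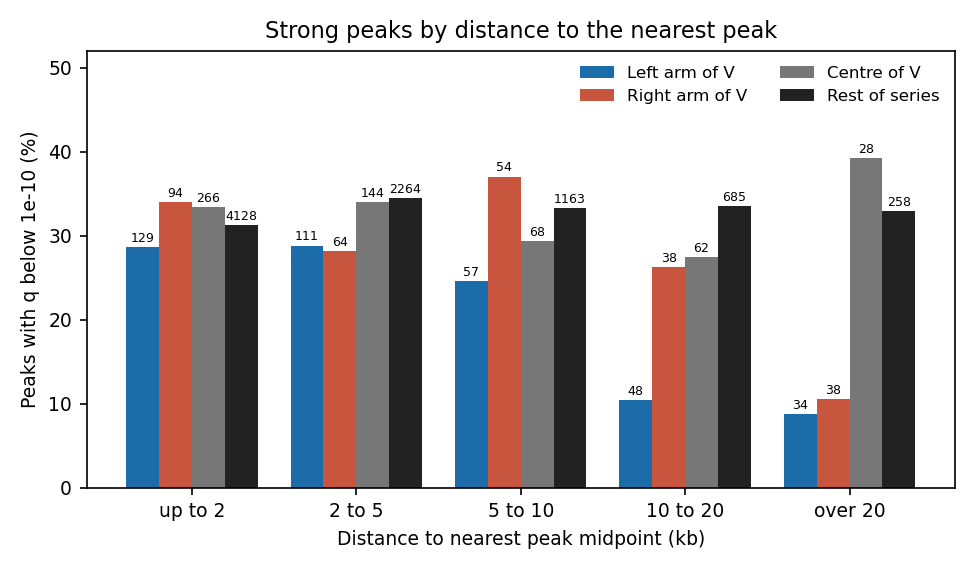
Percent of peaks with a q-value below 1e-10, by distance in kb to the nearest other peak midpoint, for the left arm, the right arm and the centre of V and the rest of the series, with the number of peaks above each bar. Over 20 kb the bars of the arms stand at 8.82% and 10.5%, those of the centre and the rest at 39.3% and 32.9%. The rest of the series includes the centre of V.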

How the data were processed

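The deposited peak list was the only file. Per the file headers its positions belong to WormBase WS180 and the peaks were called with PeakSeq. The deposited q-value of each peak is the authors' own, and here it orders, filters and describes peaks of this list alone. Aligner, tag extension and pooling are not given in the sources used. Formaldehyde at 2% fixed the animals, per the labels' protocols.

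Positions were read as 1-based. Width was end minus start plus 1. Spacing was taken between midpoints of neighbouring peaks in the same region, and distance to the nearest peak over the whole chromosome. The span from first peak start to last peak end stood in for chromosome length, except that the left arm was counted from position 1. Python 3.11.15, numpy 2.4.6 and scipy 1.17.1 were used, and the search for stretches and islands was tested on simulated lists.

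No replicate values exist, so no test was made. Named by rule were, per arm, the 5 best and 3 widest peaks, the 3 longest stretches, the 3 largest islands, the densest windows and the peaks at the boundaries. Members, lists and the rule were chosen with earlier results of these data known. The lone strong peaks and the zones of 5 stretches were chosen after their values were seen. Genes and sequences at these positions were not analysed here, because the gene table is of another build.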

Additional observations from a re-analysis of the deposited data

How the results depend on the processing

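With the list cut to the best-scoring 10%, the density ratio of right to left arm turned from 0.771 to 1.31, and the cause was not tested. It was 0.812 in the better-scoring 0.5 by q-value and 0.728 to 0.869 under the other alternatives. Of 101 recomputed values 65 stayed within the range allowed (a factor of 1.5 for counts, the 95% binomial interval otherwise), 35 moved and 1 turned. The interval treats peaks as independent, although the variance of the 100 kb counts was 2.88 (left) and 2.65 (right) times their mean. Changed limits for stretches and islands also move their counts by construction, so the tally is only a rough guide. In the better-scoring 0.5 the left arm fell to 0.571 of the centre and 0.474 of the rest, median widths were 415 bp (left) and 433 bp (right), which turned their order, and stretches numbered 18 (left) and 21 (right). In the best 10% the left arm stood at 0.362 of the centre and 0.238 of the rest, and the right arm at 0.313 of the rest. Boundaries at 6 and 15 Mb gave 0.493 (left to rest), 0.442 (right to centre), 0.365 (right to rest) and a right-arm width of 287.5 bp. Without the densest Mb of each arm the same ratios were 0.491, 0.443 and 0.364. That setting kept the same arm peaks as boundaries at 6 and 15 Mb, so it is not a separate check. Without peaks under 200 bp the median widths were 353 bp (left) and 348 bp (right). The strong shares were then 27.1% (left) and 34.9% (right). Strong shares at 1e-20 were 6.86% (left) and 11.1% (right).

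Merging peaks at most 1000 bases apart gave median spacings of 10016 and 13509 bp, 32.4% and 22.95% of spacings under 5 kb, and 3 and 0 islands on the left and right arm, by construction since it joins short distances. Islands thus depended on the definition. A link of 3 kb gave 5 on the left and 6 on the right, a link of 10 kb gave 17 and 13, at least 4 peaks 19 and 9, and at least 8 peaks 0 and 2. Stretches of at least 50 kb numbered 36 and 43, and of at least 150 kb 3 and 4. Strong shares among lone peaks, with limits added after seeing the data, were 9.76% (left) and 18.4% (right) over 10 kb and 0% and 7.69% over 30 kb. No paired analysis was possible because the only list is named as combined and gives nothing per library, and leaving out a replicate was not run for the same reason. Depth limits cannot be given without tag counts.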

Other observations

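The tip of the right arm had a low median width beside a high share of strong peaks. The very narrow calls were not the strong ones, since 0 of the 47 right-arm peaks under 200 bp were strong. Beyond 20 Mb the 50 peaks had a median width of 240.5 bp, and 20 of them (40%) had a q-value below 1e-10, against 29.2% over the whole right arm. In the terminal Mb of the left arm the median width was 308.5 bp and 10 of 54 peaks (18.5%) were strong. The window from 15 to 16 Mb, with 43 peaks, had the highest strong share of any full window on either arm, at 41.9%, beside a stretch of 198 kb without a peak.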
